A study of Mus musculus with 14 samples.

Results

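GFI1B and RUNX1 were compared in blood progenitors through the peak lists of the 2 factors. The GFI1B list held 2018 peaks and the RUNX1 list held 977, so that 2995 of the 158488 peaks of the 14 lists in the series were examined. Peaks were split by overlap of at least 1 bp. A GFI1B peak that overlapped a RUNX1 peak was called shared, as was its RUNX1 partner, and every other peak was called GFI1B-only or RUNX1-only. This gave 1843 GFI1B-only peaks, 802 RUNX1-only peaks and 175 shared regions, each made of 1 GFI1B peak and 1 RUNX1 peak. All peaks were 400 bp wide, and the lists carry no height or score.

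Both lists came from ChIP-seq, the sequencing of DNA that is pulled down with an antibody, in hematopoietic progenitors (HP). These cells were derived in culture from a strain 129 mouse embryonic stem (ES) cell line with a GFP reporter in the Brachyury gene, by way of embryoid bodies and culture with added cytokines, and were sorted for the surface protein CD41. The antibodies were Santa Cruz sc8559 against GFI1B and AbCam ab23980 against RUNX1. Each factor had 1 list from this 1 cell line and no replicate, so every test below compares sets of peaks from 2 libraries and not conditions, and the intervals cover counting error alone. Peak lists hold no expression, so the identity of the cells could not be checked against marker genes. No peak of either factor was assigned to Itga2b, which encodes CD41.

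GFI1B is a zinc finger repressor that recruits the demethylase LSD1 and CoREST proteins to DNA through its SNAG domain. It is needed for erythroid and megakaryocytic development and, with its relative GFI1, for silencing of the endothelial program when blood cells leave the hemogenic endothelium. RUNX1 binds DNA as a heterodimer with CBFβ, is required for that same transition, and both activates and represses genes. GFI1 and GFI1B are known targets of RUNX1.

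The DNA under the 3 classes differed, and examples are shown before the counts. The examples were chosen to show a consensus that a class comparison turns on. What they hold is therefore not a result, and they do not stand for the typical peak of a class. The consensus bound by GFI1 and GFI1B was searched as AATC followed by A or T, C or G, A or T, and GC. The RUNX consensus was TGTGGTT and the GATA consensus AGATAA, all on both strands. The sequences are the central 200 bases of peaks, read from the plus strand of the RefSeq GRCm38 assembly, with matches to these 3 consensus sequences in capitals. The first set shows the GFI1 consensus near the centre of GFI1B-only peaks, at Bcl2l11, which encodes the pro-apoptotic protein BIM, at Eef1a1, a translation elongation factor, and near Sox7, a transcription factor (TF) of endothelium.
Bcl2l11 (chr2:128128100-128128299): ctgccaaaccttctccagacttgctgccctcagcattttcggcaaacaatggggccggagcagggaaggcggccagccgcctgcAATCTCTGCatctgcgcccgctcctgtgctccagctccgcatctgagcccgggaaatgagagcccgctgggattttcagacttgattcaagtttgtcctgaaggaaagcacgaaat
Eef1a1 (chr9:78482436-78482635): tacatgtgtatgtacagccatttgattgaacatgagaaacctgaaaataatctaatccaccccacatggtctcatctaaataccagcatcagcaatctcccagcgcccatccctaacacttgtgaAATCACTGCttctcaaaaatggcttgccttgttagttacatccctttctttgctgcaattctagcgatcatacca
Sox7 (chr14:63908627-63908826): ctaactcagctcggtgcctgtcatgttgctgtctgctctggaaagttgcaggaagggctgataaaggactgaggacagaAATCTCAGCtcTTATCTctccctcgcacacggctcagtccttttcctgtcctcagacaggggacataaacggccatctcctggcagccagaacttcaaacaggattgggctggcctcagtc

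The consensus midpoint lay 11.5 bp from the peak centre at Bcl2l11, 29.5 bp at Eef1a1 and 16.5 bp at Sox7. The Bcl2l11 peak lay in an intron 625 bp downstream of a transcription start site (TSS). The Eef1a1 peak lay between genes 812 bp upstream, and the Sox7 peak 34979 bp upstream in an intron of Pinx1. At Sox7 a GATA consensus followed the GFI1 consensus.

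The next set comes from shared regions and shows a RUNX or a GATA consensus, or both, in its windows. Itgb3 encodes the integrin β3 chain of platelets, Gfi1 the relative of GFI1B, Bid a pro-apoptotic BCL2-family protein, Cbfa2t3 the corepressor ETO2, and Cebpe the granulocytic factor C/EBPε. The RUNX1 peak of each pair is shown.
Itgb3 (chr11:104618900-104619099): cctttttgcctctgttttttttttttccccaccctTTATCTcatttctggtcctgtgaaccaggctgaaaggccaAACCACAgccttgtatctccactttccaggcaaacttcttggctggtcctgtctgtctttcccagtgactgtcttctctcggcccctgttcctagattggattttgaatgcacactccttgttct
Gfi1 (chr5:107759227-107759426): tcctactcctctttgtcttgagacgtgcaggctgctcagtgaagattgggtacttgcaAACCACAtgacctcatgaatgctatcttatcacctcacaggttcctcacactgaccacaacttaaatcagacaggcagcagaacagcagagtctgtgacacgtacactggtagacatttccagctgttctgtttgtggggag
Bid (chr6:120914715-120914914): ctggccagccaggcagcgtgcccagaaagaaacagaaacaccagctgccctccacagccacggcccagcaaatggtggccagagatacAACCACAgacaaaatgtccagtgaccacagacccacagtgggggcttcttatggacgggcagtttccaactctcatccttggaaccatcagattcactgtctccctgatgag
Cbfa2t3 (chr8:122719907-122720106): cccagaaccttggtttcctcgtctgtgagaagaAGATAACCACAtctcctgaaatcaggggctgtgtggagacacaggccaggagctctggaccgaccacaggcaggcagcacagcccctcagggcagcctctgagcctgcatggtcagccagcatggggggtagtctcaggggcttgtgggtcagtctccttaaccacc
Cebpe (chr14:54706006-54706205): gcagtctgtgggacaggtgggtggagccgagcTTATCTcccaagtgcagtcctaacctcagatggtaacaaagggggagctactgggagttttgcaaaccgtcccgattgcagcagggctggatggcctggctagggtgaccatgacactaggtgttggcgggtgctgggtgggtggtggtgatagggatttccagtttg

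At Itgb3, in an intron 11000 bp downstream of the TSS, a RUNX and a GATA consensus lay 21.5 and 62 bp from the centre. At Cbfa2t3, 20898 bp upstream of the TSS, the 2 consensus sequences overlapped by sharing bases. Near Cebpe the peaks of the 2 factors had identical coordinates 6068 bp downstream of the TSS, with a GATA consensus and no match to the RUNX consensus in the central 200 bases. No GFI1 consensus was present in these 5 windows.

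Where RUNX1-only peaks held a RUNX consensus it often lay near their centre, and the last set shows it in introns of Ccnd3 (cyclin D3) and Adgrg1 (the adhesion receptor GPR56) and in an intron of Sae1 near Bbc3, which encodes the p53 target PUMA.
Ccnd3 (chr17:47595605-47595804): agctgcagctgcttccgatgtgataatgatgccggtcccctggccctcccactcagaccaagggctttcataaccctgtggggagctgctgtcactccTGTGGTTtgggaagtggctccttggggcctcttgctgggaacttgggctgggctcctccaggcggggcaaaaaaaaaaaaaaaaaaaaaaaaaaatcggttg
Adgrg1 (chr8:94985238-94985437): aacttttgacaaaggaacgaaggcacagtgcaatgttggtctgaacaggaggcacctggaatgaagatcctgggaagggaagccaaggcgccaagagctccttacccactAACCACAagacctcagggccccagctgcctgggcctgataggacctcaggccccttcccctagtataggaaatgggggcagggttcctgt
Bbc3 (chr7:16340874-16341073): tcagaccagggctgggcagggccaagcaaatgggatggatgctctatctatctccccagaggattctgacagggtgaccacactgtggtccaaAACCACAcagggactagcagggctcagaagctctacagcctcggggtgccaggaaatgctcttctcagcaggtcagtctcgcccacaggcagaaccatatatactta

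The RUNX consensus lay 1.5 bp from the centre at Ccnd3, 13.5 bp at Adgrg1 and 3.5 bp near Bbc3.

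Shared regions were a minority of both lists. They made up 8.67% of the GFI1B list (95% exact interval 7.48 to 9.99%) and 17.9% of the RUNX1 list (15.6 to 20.5%). The overlap rule keeps the 2 peak centres of a shared region less than 400 bp apart. As a description, their median distance was 70 bp (quartiles 36.5 and 129 bp), 117 of the 175 pairs, or 66.9%, lay within 100 bp, and in 174 pairs both peaks had the same nearest coding gene. The least overlapping pair inside the 1 bp rule, at Hira, shared 14 bp with centres 386 bp apart, and the nearest pair outside it, at the promoter of Cstf2t, had centres 411 bp apart. These 2 genes are named for their place at the threshold. Between 400 and 1000 bp from a peak of the other factor lay 19 GFI1B peaks and 18 RUNX1 peaks.

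RUNX1-only peaks lay mainly at promoters, and GFI1B-only and shared peaks mainly away from them. Promoter peaks were those with a centre within 2 kb of the TSS of a coding RefSeq transcript. This held for 65.96% of RUNX1-only peaks (529 of 802, 62.6 to 69.2%), 42.6% of GFI1B-only peaks (786 of 1843, 40.4 to 44.9%) and 37.7% of shared RUNX1 peaks (66 of 175, 30.5 to 45.3%). The share was 23.3 percentage points lower in GFI1B-only than in RUNX1-only peaks (Fisher's exact test, two-sided, adjusted p = 5.2e-28 over 3 comparisons). Within the RUNX1 list, shared peaks were 28.2 points below RUNX1-only peaks (exact test, adjusted p = 1.8e-11). Within the GFI1B list, the 38.3% of shared peaks at promoters did not differ detectably from GFI1B-only peaks (difference -4.36 points, interval -11.6 to 3.35, exact test, adjusted p = 0.298).

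The median distance to the nearest coding TSS was 284 bp for RUNX1-only peaks, 4977 bp for GFI1B-only peaks and 8230 bp for shared RUNX1 peaks. RUNX1-only peaks were concentrated at the TSS itself, with 31.4% within 100 bp, where 8.57% of GFI1B-only peaks lay. GFI1B-only peaks at promoters sat farther from the TSS, at a median of 334 bp against 104 bp for RUNX1-only promoter peaks. The upstream side held 52.0% of GFI1B-only (exact interval 48.5 to 55.6%) and 55.4% of RUNX1-only promoter peaks (51.04 to 59.7%). Between 100 and 500 bp from the TSS it held 62.7% and 63.5%. Beyond 50 kb lay 16.5% of GFI1B-only, 17.1% of shared RUNX1 and 8.10% of RUNX1-only peaks. Among distal peaks, introns were the commonest location in each class, with 53.2% of GFI1B-only, 56.9% of shared RUNX1 and 53.5% of RUNX1-only peaks.

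**Figure D1:**
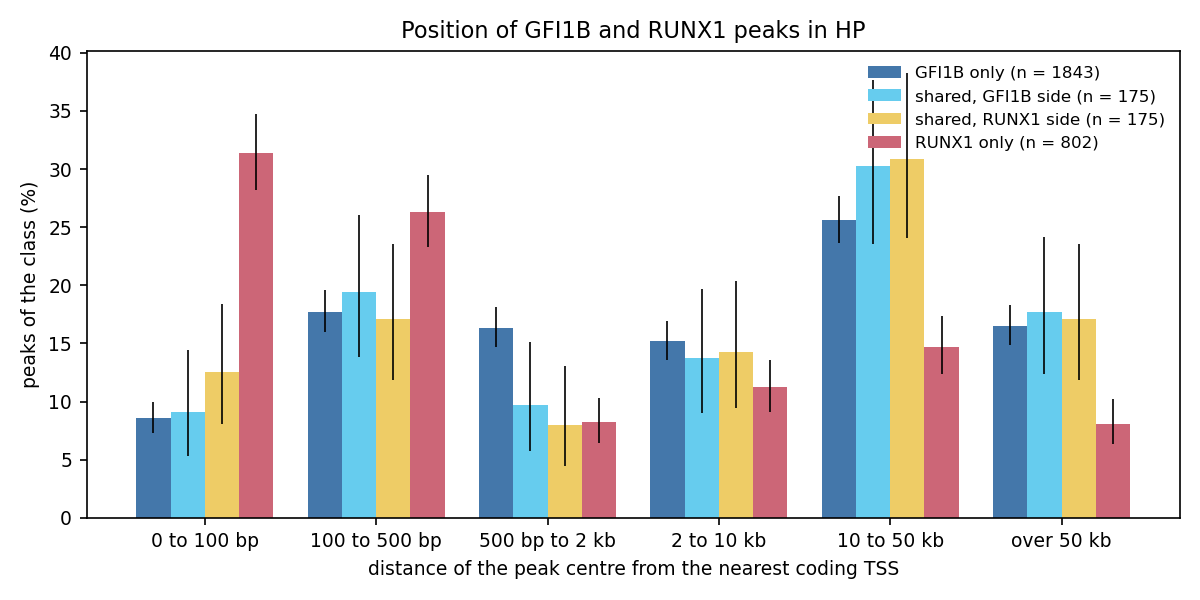
Distance from the peak centre to the nearest coding TSS (horizontal, binned) against the percentage of the peaks of each class (vertical), with exact 95% intervals. RUNX1-only peaks are the tallest bars up to 500 bp, and GFI1B-only and shared peaks are taller beyond 10 kb.

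Base composition also differed between the classes. The median GC content was 61.25% in RUNX1-only peaks, 56.25% in shared RUNX1 peaks and 51.75% in GFI1B-only peaks. The classes still differed among promoter peaks, where the median number of CpG dinucleotides per 400 bp was 35 in RUNX1-only, 33 in shared RUNX1 and 20 in GFI1B-only peaks. Among distal peaks the medians were 7, 6 and 5. The part of GC content in the consensus counts below was not tested.

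The GFI1 consensus marked GFI1B-only peaks and was uncommon in shared regions. It was present in 27.5% of GFI1B-only peaks (507 of 1843), 8.57% of shared GFI1B peaks (15 of 175) and 1.50% of RUNX1-only peaks (12 of 802). Windows of equal width placed 2 kb upstream and downstream held it in 3.93% for GFI1B-only peaks, 3.43% for shared and 3.80% for RUNX1-only peaks, and 2.94% of 400 bp windows centred on the 25999 coding TSSs held it. The fall of 18.9 points from GFI1B-only to shared GFI1B peaks was past the threshold (Fisher's exact test, adjusted p = 1.1e-08 over 36 comparisons), as was the difference of 26.0 points between GFI1B-only and RUNX1-only peaks (exact test, adjusted p = 1.3e-70). Both held in promoter and in distal peaks taken separately. Shared RUNX1 peaks held it in 6.29%, above RUNX1-only peaks (exact test, adjusted p = 0.00301), a call that was lost among promoter peaks and in the central 200 bp (exact tests, adjusted p = 0.469 and 0.374). GFI1B-only peaks carried it in 33.6% of promoter and 23.0% of distal peaks, and shared GFI1B peaks in 8.96% and 8.33%.

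The 8 sequences that the GFI1 consensus allows were not used equally in GFI1B-only peaks. AATCACAGC occurred 112 times and AATCTCAGC 103 times, and AATCTGAGC, the rarest, 26 times. A single copy was the rule, with 31 GFI1B-only peaks holding 2 or more copies and no shared GFI1B peak doing so. The shorter core AAATC, which was chosen after the data were seen and was not tested, was present in 75.2% of GFI1B-only peaks against 57.7% of their flanking windows. In shared GFI1B peaks it was present in 58.3%, against 59.4% of flanking windows. RUNX1-only peaks held it in 25.1%, against 57.7% of flanking windows.

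The RUNX consensus was commonest in shared regions. It was present in 37.1% of shared RUNX1 peaks (65 of 175), 34.9% of shared GFI1B peaks (61 of 175), 23.8% of RUNX1-only peaks (191 of 802) and 13.9% of GFI1B-only peaks (257 of 1843). Flanking windows held it in 9.43% for shared RUNX1, 11.9% for RUNX1-only and 9.98% for GFI1B-only peaks. Shared GFI1B peaks exceeded GFI1B-only peaks by 20.9 points (Fisher's exact test, adjusted p = 3.6e-10), and by 27.2 points among distal peaks (exact test, adjusted p = 1.1e-08). Among promoter peaks the difference of 9.64 points missed the threshold (exact test, adjusted p = 0.0548).

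Shared RUNX1 peaks exceeded RUNX1-only peaks by 13.3 points when all were counted (exact test, adjusted p = 0.00171), but this call was lost in both strata. Distal RUNX1 peaks held the RUNX consensus in 47.7% when shared and 44.7% when RUNX1-only (difference 3.02 points, exact test, adjusted p = 0.979). Promoter RUNX1 peaks held it in 19.7% when shared and 13.0% when RUNX1-only (exact test, adjusted p = 0.469). The flanking windows of promoter RUNX1-only peaks held it in 12.1%, and 5.44% of windows on all coding TSSs held it.

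The GATA consensus separated the lists in another way. It was found in 31.4% of GFI1B-only peaks, 35.4% of shared GFI1B peaks, 34.3% of shared RUNX1 peaks and 12.1% of RUNX1-only peaks. Flanking windows held it in 20.3% for GFI1B-only, 22.6% for shared RUNX1 and 21.1% for RUNX1-only peaks, and windows on all coding TSSs in 10.7%. Shared RUNX1 peaks exceeded RUNX1-only peaks by 22.2 points (Fisher's exact test, adjusted p = 1.9e-10), and by 21.7 points among distal peaks (exact test, adjusted p = 2.8e-04). Among promoter peaks the difference of 9.29 points missed the threshold (exact test, adjusted p = 0.0589). Shared and GFI1B-only peaks were not separated by it (difference 4.01 points, interval -3.03 to 11.6, exact test, adjusted p = 0.443). Distal GFI1B-only peaks held a GATA consensus in 44.1%, against 19.9% of their flanking windows, while promoter GFI1B-only peaks held it in 14.4%, against 20.8% of theirs. A RUNX and a GATA consensus occurred together in 15.4% of shared RUNX1 peaks, 5.43% of GFI1B-only peaks and 4.49% of RUNX1-only peaks.

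RUNX1-only peaks more often held sequences common at promoters. The GC box GGGCGGGG, which binds SP and KLF factors, was present in 27.9% of them against 11.3% of GFI1B-only peaks (exact test, adjusted p = 2.5e-23), and the ETS consensus CCGGAAGT in 9.23% against 2.93% (exact test, adjusted p = 3.0e-10). The GC box was also commoner in RUNX1-only peaks among distal peaks alone (12.1% against 4.26%, exact test, adjusted p = 5.5e-05), whereas the ETS difference was found among promoter peaks (13.0% against 4.83%, exact test, adjusted p = 2.0e-06) and not among distal ones (1.83% against 1.51%, exact test, adjusted p = 1.00). On all coding TSSs the GC box was present in 26.3% of windows and the ETS consensus in 5.45%. The YY1 consensus AAGATGGC and the CRE TGACGTCA followed the same direction at lower levels, at 3.87% against 1.84% and 3.12% against 1.14% (exact tests, adjusted p = 0.00889 and 0.00305). The CRE call was lost within each stratum, and the YY1 call among distal peaks and in the central 200 bp.

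The E-box CAGATG was present in 24.6% of GFI1B-only and 19.2% of RUNX1-only peaks (exact test, adjusted p = 0.00599), and this direction turned among distal peaks, where GFI1B-only minus RUNX1-only peaks came to -4.29 points (exact test, adjusted p = 0.546). Shared RUNX1 peaks held it in 29.7%, above RUNX1-only peaks (exact test, adjusted p = 0.00749), with no call in either stratum alone. The PU.1 consensus GAGGAAGT, the NRF1 core CGCATGCG and the C/EBP and AP-1 sequences (TTGC, then A or G, then C or T, then AA; and TGA, then C or G, then TCA) gave no call in any of the 3 comparisons. PU.1 stood at 5.48% of GFI1B-only, 7.43% of shared RUNX1 and 5.36% of RUNX1-only peaks. Of 36 comparisons, 16 were past the threshold. In 41.8% of GFI1B-only, 39.4% of shared RUNX1 and 67.3% of RUNX1-only peaks, none of the GFI1, RUNX and GATA sequences was present.

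**Figure D2:**
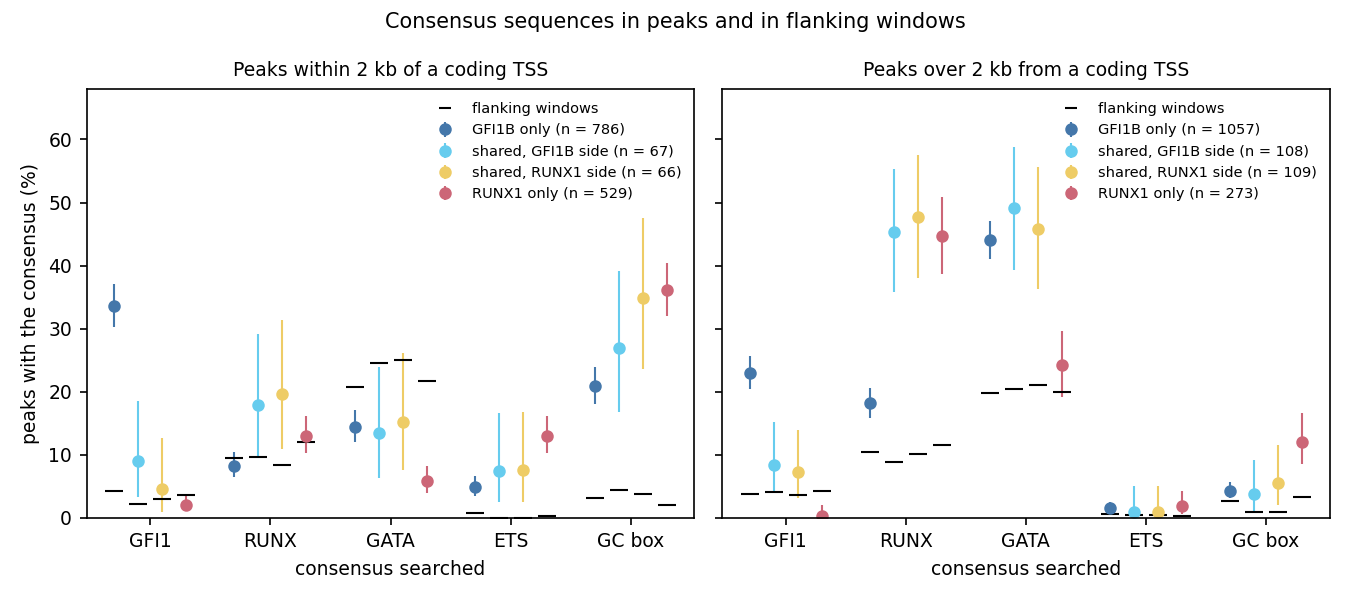
Percentage of peaks (vertical) that hold each consensus (horizontal), for promoter-proximal peaks on the left and distal peaks on the right. Points show the 4 sets of peaks with exact 95% intervals, and dashes show their flanking windows. The GFI1 consensus is high in GFI1B-only peaks in both panels, the RUNX consensus is high in distal shared and RUNX1-only peaks, and the GC box is high in promoter RUNX1-only and shared RUNX1 peaks.

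The position of a consensus inside the peak also differed by class. In the 507 GFI1B-only peaks with a GFI1 consensus, the nearest copy lay a median of 19.5 bp from the centre, and 82.2% had one within 50 bp. In the 191 RUNX1-only peaks with a RUNX consensus the median was 25.5 bp, and 71.2% had one within 50 bp. Shared RUNX1 peaks had the same median of 25.5 bp, with 73.8% within 50 bp. In GFI1B-only peaks a RUNX consensus lay a median of 63.5 bp away, and in shared GFI1B peaks 50.5 bp away, so that it was less centred on GFI1B peaks than on RUNX1 peaks. The GATA consensus was not centred to this degree, at a median of 59 bp in GFI1B-only, 57 bp in shared RUNX1 and 52 bp in RUNX1-only peaks.

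Within shared regions each factor's centre leaned to its own sequence. In 58 pairs a RUNX consensus was present in the overlap of the 2 peaks, and it lay nearer to the RUNX1 centre in 39 and nearer to the GFI1B centre in 17, with median distances of 22.5 and 49.5 bp. In 10 pairs a GFI1 consensus was present in the overlap, and it lay nearer to the GFI1B centre in 10 of 10, at a median of 16.5 bp against 121 bp. In 56 pairs with a GATA consensus, 34 had it nearer to the GFI1B centre and 17 nearer to the RUNX1 centre. These counts were made after the data were seen and were not tested.

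**Figure D3:**
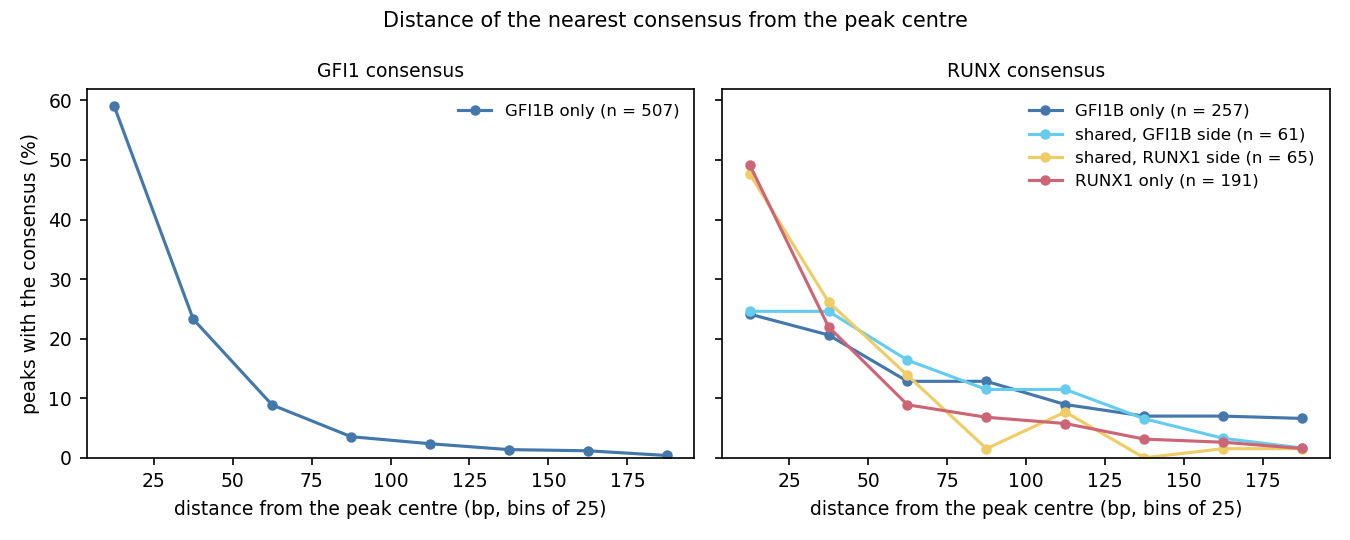
Distance from the peak centre to the nearest consensus, in bins of 25 bp (horizontal), against the percentage of the peaks that hold it (vertical), for the GFI1 consensus on the left and the RUNX consensus on the right. In the nearest bin lie 59.0% of GFI1B-only peaks with a GFI1 consensus, and for the RUNX consensus 49.2% of RUNX1-only but 24.1% of GFI1B-only peaks.

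Shared regions overlapped the peaks of GATA1 and GATA2 in the same cells more often than either remaining class. GATA1 and GATA2 are zinc finger factors of erythroid, megakaryocytic and stem cell programs, and PU.1, encoded by Spi1, is the ETS factor of myeloid development. HP GATA2 peaks overlapped 25.7% of shared GFI1B peaks (45 of 175), 4.12% of GFI1B-only peaks (76 of 1843) and 5.61% of RUNX1-only peaks (45 of 802). HP GATA1 peaks overlapped 20.0% of shared GFI1B peaks (35 of 175), 3.09% of GFI1B-only peaks and 3.99% of RUNX1-only peaks. The excess of shared over GFI1B-only peaks was 21.6 points for GATA2 and 16.9 points for GATA1 (Fisher's exact tests, adjusted p = 1.2e-18 and 8.2e-15 over 21 comparisons). The excess of shared over RUNX1-only peaks was 20.1 and 16.6 points (exact tests, adjusted p = 5.9e-13 and 2.6e-11). These 4 calls were kept in promoter and in distal peaks. GFI1B-only and RUNX1-only peaks did not differ detectably in either list when all peaks were counted (GATA2 difference -1.49 points, interval -3.48 to 0.230), but among distal peaks GFI1B-only peaks were lower, by 4.93 points for GATA2 and 4.17 for GATA1 (exact tests, adjusted p = 0.0113 and 0.0116).

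Distal GFI1B-only peaks held the consensus in 44.1% and overlapped a GATA1 or GATA2 peak in 8.33%, while distal shared GFI1B peaks held it in 49.1% and overlapped one in 39.8%. Distal RUNX1-only peaks held it in 24.2% and overlapped one in 16.1%, so that they were below GFI1B-only peaks in the consensus and above them in the GATA peaks. The GATA1 and GATA2 lists were short, with 250 and 530 peaks, so a missing overlap does not show that a factor was absent.

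HP PU.1 peaks overlapped 26.9% of shared GFI1B, 8.84% of GFI1B-only and 18.3% of RUNX1-only peaks. Shared peaks exceeded GFI1B-only peaks by 18.01 points (exact test, adjusted p = 1.4e-10), a call that was lost among promoter peaks (7.42 points, exact test, adjusted p = 0.0987). Shared RUNX1 peaks exceeded RUNX1-only peaks by 9.10 points (exact test, adjusted p = 0.0132), but not within distal or promoter peaks taken separately (exact tests, adjusted p = 0.254 and 0.818). RUNX1-only peaks exceeded GFI1B-only peaks in both strata. HP C/EBPβ overlapped 9.71% of shared GFI1B and 4.83% of GFI1B-only peaks (exact test, adjusted p = 0.0161), a difference that was lost among promoter peaks (1.52 points, exact test, adjusted p = 0.665) and once regions found in 8 or more lists were left out (2.77 points, exact test, adjusted p = 0.174). None of the 4 other HP lists overlapped 82.7% of GFI1B-only, 72.2% of RUNX1-only and 49.7% of shared GFI1B peaks.

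Lists from macrophages (MAC), the CD11b-positive cells of the same differentiation, overlapped RUNX1 peaks, shared or not, more often than GFI1B-only peaks. MAC PU.1 peaks overlapped 36.8% of GFI1B-only, 62.3% of shared GFI1B and 62.8% of RUNX1-only peaks, and MAC C/EBPβ peaks 25.1%, 38.9% and 39.8%. GFI1B-only peaks were lower than RUNX1-only peaks by 26.0 and 14.7 points (exact tests, adjusted p = 9.6e-34 and 3.4e-13), and these calls held in both strata. Shared and RUNX1-only peaks were not separated by MAC PU.1 (difference 0.0143 points, interval -8.04 to 7.63, exact test, adjusted p = 1.00). The MAC RUNX1 list held 72 peaks, which overlapped 13 shared regions, 23 RUNX1-only peaks and 1 GFI1B-only peak. Its share was higher in shared than in RUNX1-only peaks (7.43% against 2.87%, exact test, adjusted p = 0.0113), a call lost in both strata and without chromosome 8 (exact tests, adjusted p = 0.175, 0.119 and 0.117). Of the 21 comparisons, 16 were past the threshold.

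**Figure D4:**
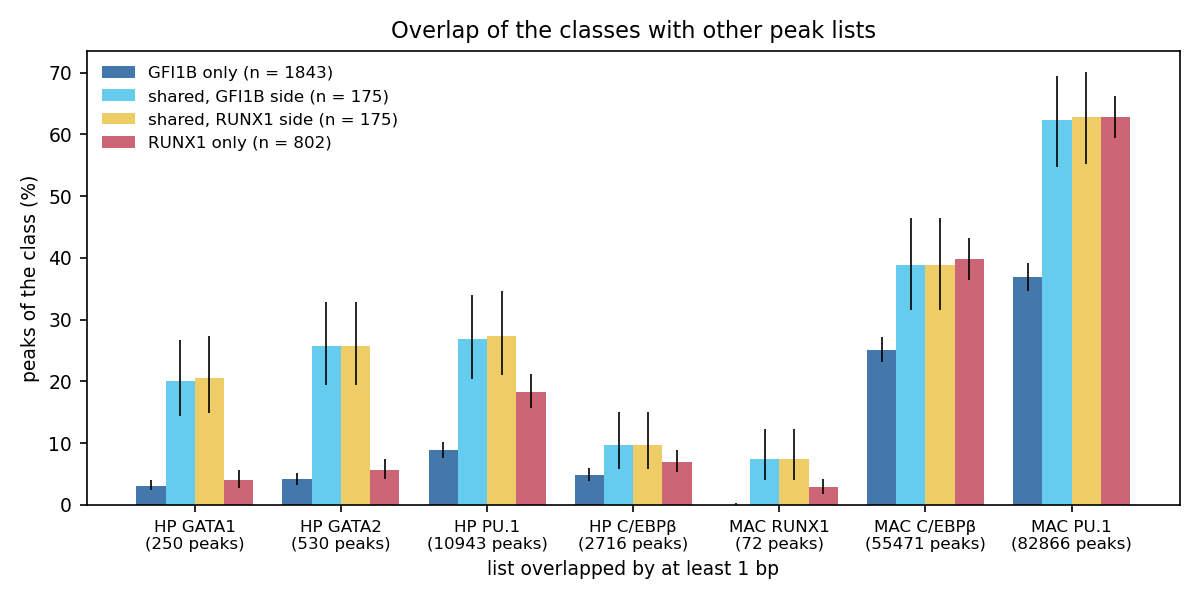
Percentage of the peaks of each class (vertical, exact 95% intervals) that overlap other HP and MAC lists (horizontal, with the number of peaks in each list). Shared bars stand above the others for HP GATA1 and GATA2, and for MAC PU.1 shared and RUNX1-only bars stand near 62% with GFI1B-only at 36.8%.

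The 10 shared regions with the closest centres show how varied this company was. Peaks of the 2 factors had identical coordinates near Cebpe, Phf21a and B4galt5. Phf21a encodes BHC80, a member of the LSD1 complex that GFI1B recruits, and B4galt5 a galactosyltransferase. The centres were 1 bp apart near Adcy9, 2 bp near Rpp21, 3 bp in Itgb3 and in Zfpm1, which encodes the GATA cofactor FOG1, and 4 bp in Ano6, in Itsn1 and near Nrgn. The Cebpe region also held HP GATA1, GATA2 and C/EBPβ and MAC C/EBPβ peaks. The regions at B4galt5, Adcy9, Itgb3, Ano6 and Nrgn were found in the GFI1B and RUNX1 lists alone, as were 26 of the 175 shared regions. The Rpp21 region was found in all 14 lists. In all, 4 shared regions lay in 8 or more lists.

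Genes of the blood regulatory network held peaks of all 3 classes. Each peak was assigned to the coding gene with the nearest TSS, and distances are to that TSS. The paper warns that such links depend on the size of intergenic regions, which was not corrected for here. Of 16 network factors, 7 had a GFI1B-only peak, 2 a shared region and 2 a RUNX1-only peak. Over all 21000 coding genes, the shares with such a peak were 7.82%, 0.805% and 3.70%. The GFI1B list was the longer by 2018 peaks to 977 and was called at a less strict p-value cutoff than the RUNX1 list, so the classes are read against these shares and not against each other. No set test was made.

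Runx1 and Gfi1 were the network genes with a shared region. At Runx1, a GFI1B peak at chr16:92821728-92822127 and a RUNX1 peak 343 bp from it overlapped 4146 and 3803 bp downstream of a TSS, in a region also bound by GATA1, GATA2 and PU.1 in HP. The GFI1B peak held a GFI1, a RUNX and a PU.1 consensus. A GFI1B-only peak lay 2263 bp downstream of that TSS, and RUNX1-only peaks lay 619 and 24320 bp downstream of TSSs of the gene. At Gfi1, a GFI1B-only peak lay 515 bp upstream of the TSS, without a GFI1 consensus. The shared region lay 33610 bp upstream in an intron of Evi5, held a RUNX and a GATA consensus, and was found in 11 of the 14 lists.

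GFI1B also had a peak 39 bp upstream of its own TSS, at Gfi1b, where no RUNX1 peak was assigned by the nearest TSS. Downstream of that TSS, however, lay 2 shared regions with GFI1B peaks at 22519 and 23786 bp and a GFI1B-only peak at 19575 bp, all assigned to the neighbouring Gtf3c5. These regions were looked up after the assignments were seen. Spi1 had a GFI1B-only peak 36 bp upstream of 1 TSS and a RUNX1-only peak 655 bp downstream of another. Gata2 had a GFI1B-only peak with a GFI1 consensus 1210 bp downstream of the TSS, Meis1, a homeobox factor of stem cells, had one 1533 bp upstream, and Esrrb, a nuclear receptor of ES cells, had one with a GFI1 consensus 17687 bp downstream. The remaining 9 factors, among them Tal1, Lmo2, Fli1 and Gata1, were not the nearest coding gene of any peak of either factor. Other rules of assignment, such as a wider window around the gene, were not counted for these loci.

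Of 37 other hematopoietic TFs, 14 (37.8%) had a GFI1B-only peak, 2 (5.41%) a shared region and 4 (10.8%) a RUNX1-only peak, against 7.82%, 0.805% and 3.70% of all coding genes. The shared regions were those of Cebpe and Zfpm1, and Zfpm1 also had a GFI1B-only peak 31420 bp downstream of the TSS. Lyl1, a basic helix-loop-helix factor, had RUNX1-only peaks 60 and 2103 bp downstream and a GFI1B-only peak 1410 bp upstream. Myb had a GFI1B-only peak 21 bp downstream of its TSS and Klf2 one 237 bp upstream. Nfe2, a leucine zipper factor of megakaryocytes, had a RUNX1-only peak 99 bp upstream.

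Of 16 RUNX partners and coregulators, 5 (31.2%) had a GFI1B-only peak, 2 (12.5%) a shared region and 1 (6.25%) a RUNX1-only peak. Over all coding genes these shares were 7.82%, 0.805% and 3.70%. Cbfa2t3 had 3 GFI1B-only peaks, at 214, 12947 and 21426 bp upstream, beside shared regions with GFI1B peaks 1883 and 20829 bp upstream. Cbfb, which encodes the partner of RUNX1, had a GFI1B-only peak 547 bp downstream, and Crebbp, an acetyltransferase, had one with a GFI1 consensus 15 bp upstream. Runx3 had a RUNX1-only peak 50667 bp upstream. Of 12 corepressor partners of GFI1B, 1 (8.33%) had a GFI1B-only peak, near the 7.82% of all coding genes, and 1 a shared region. Rcor1 (CoREST) had the GFI1B-only peak 54828 bp downstream and Phf21a the shared region.

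Of 30 endothelial and hemogenic genes, 8 (26.7%) had a GFI1B-only peak, 2 (6.67%) a shared region and 0 a RUNX1-only peak. Over all coding genes these shares were 7.82%, 0.805% and 3.70%. Those with a GFI1B-only peak included Egfl7 (37 bp upstream), an endothelial protein with epidermal growth factor-like domains, and Pecam1 (273 bp upstream), the adhesion protein CD31. Smad7 (427 bp upstream), an inhibitor of BMP and TGFβ signaling, was also among them. Sox7 and Smad7 had shared regions 14303 and 135693 bp downstream. Of 30 megakaryocyte and platelet genes, 3 (10%) had a GFI1B-only peak, 1 (3.33%) a shared region and 5 (16.7%) a RUNX1-only peak. The RUNX1-only peaks included P2rx1, an ATP receptor (194 bp upstream), F2r, the thrombin receptor (126 bp upstream, with a RUNX consensus), and the focal adhesion genes Zyx and Tln1. The shared region was that of Itgb3. Of 28 erythroid genes, 2 had a GFI1B-only peak, among them Bcl2l1, a survival factor, 12677 bp downstream, and none had a RUNX1 peak. Of 30 myeloid and mast cell genes, 2 had a GFI1B-only peak and 1 a RUNX1-only peak. The GFI1B-only shares of the erythroid and myeloid lists, 7.14% and 6.67%, and the RUNX1-only share of the myeloid list, 3.33%, lay near those of all coding genes. Among them were GFI1B-only peaks at Mpo (myeloperoxidase) 311 and 3520 bp upstream. Of 30 stem cell and progenitor receptor and surface genes, 5 (16.7%) had a GFI1B-only and 2 (6.67%) a RUNX1-only peak, against 7.82% and 3.70% of all coding genes. Sh2b3, which encodes the cytokine signaling inhibitor LNK, had both, with GFI1B-only peaks 1985 bp upstream and 2098 bp downstream and a RUNX1-only peak 15765 bp downstream.

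Genes of general cell functions were read against the 3.70% of all coding genes with a RUNX1-only and the 7.82% with a GFI1B-only peak. RUNX1-only peaks were at 5 of 30 translation factors, 5 of 30 DNA repair and replication genes, 6 of 40 splicing genes, 6 of 30 cytoskeleton and adhesion genes and 4 of 40 cell cycle genes. Examples at the TSS were Eif4a2 (26 bp upstream), an RNA helicase of translation initiation, Gspt1 (64 bp upstream), a translation release factor, Atr (32 bp downstream), the DNA damage kinase, Hnrnpa2b1 (13 bp downstream), an RNA-binding protein, and Rhob (13 bp upstream), a small GTPase. The RUNX1-only shares ran from 10.0% for cell cycle genes to 20.0% for cytoskeleton and adhesion genes. GFI1B-only peaks were at 1, 2, 5, 4 and 3 genes of these lists, or 3.33%, 6.67%, 12.5%, 13.3% and 7.5%. Among 83 ribosomal protein genes of the cytosol, 8 had a GFI1B-only, 1 a shared and 6 a RUNX1-only peak, the shared region lying at Rpl37. Of 99 respiratory chain genes, 7 had a GFI1B-only and 1 a RUNX1-only peak. Of 78 mitochondrial ribosome genes, 7, 2 and 3 had a peak of the 3 classes, and of 40 proteasome genes, 1, 0 and 2.

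Apoptosis genes held peaks of every class, at 5, 1 and 3 of 20 genes (25%, 5% and 15%), against 7.82%, 0.805% and 3.70% of all coding genes. With peaks within 2 kb of a TSS the counts were 1, 0 and 3 of 20, against 4.00%, 0.352% and 2.87% of all coding genes. Bid had a shared region 2057 bp downstream and a GFI1B-only peak 38565 bp upstream. Bbc3 had RUNX1-only peaks 2803 and 30543 bp downstream, both with a RUNX consensus, and a GFI1B-only peak 15905 bp downstream. Bcl2l11 and Mcl1, a survival factor, had GFI1B-only peaks, and Birc2 and Birc5, inhibitor of apoptosis proteins, had RUNX1-only peaks 19 and 86 bp upstream. Of 40 chromatin regulators, 6, 1 and 3 (15%, 2.5% and 7.5%) had a peak of the 3 classes, against the same 7.82%, 0.805% and 3.70%. Within 2 kb of a TSS these counts were 2, 1 and 4. They included Ctcf (GFI1B-only), Chd8 and Kdm2b (RUNX1-only) and the shared region 768 bp downstream of the TSS of Eed, a subunit of Polycomb repressive complex 2.

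Lists of genes of other tissues and large families were counted for comparison. GFI1B-only peaks were at 1 of 1107 olfactory receptors, 0 of 20 hepatocyte genes, 1 of 20 heart and smooth muscle genes and 4 of 30 neuronal genes, and RUNX1-only peaks at 0, 0, 1 and 0. The 395 genes named Zfp had GFI1B-only peaks at 35, shared regions at 3 and RUNX1-only peaks at 16, or 8.86%, 0.759% and 4.05%, near the shares over all coding genes.

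**Figure D5:**
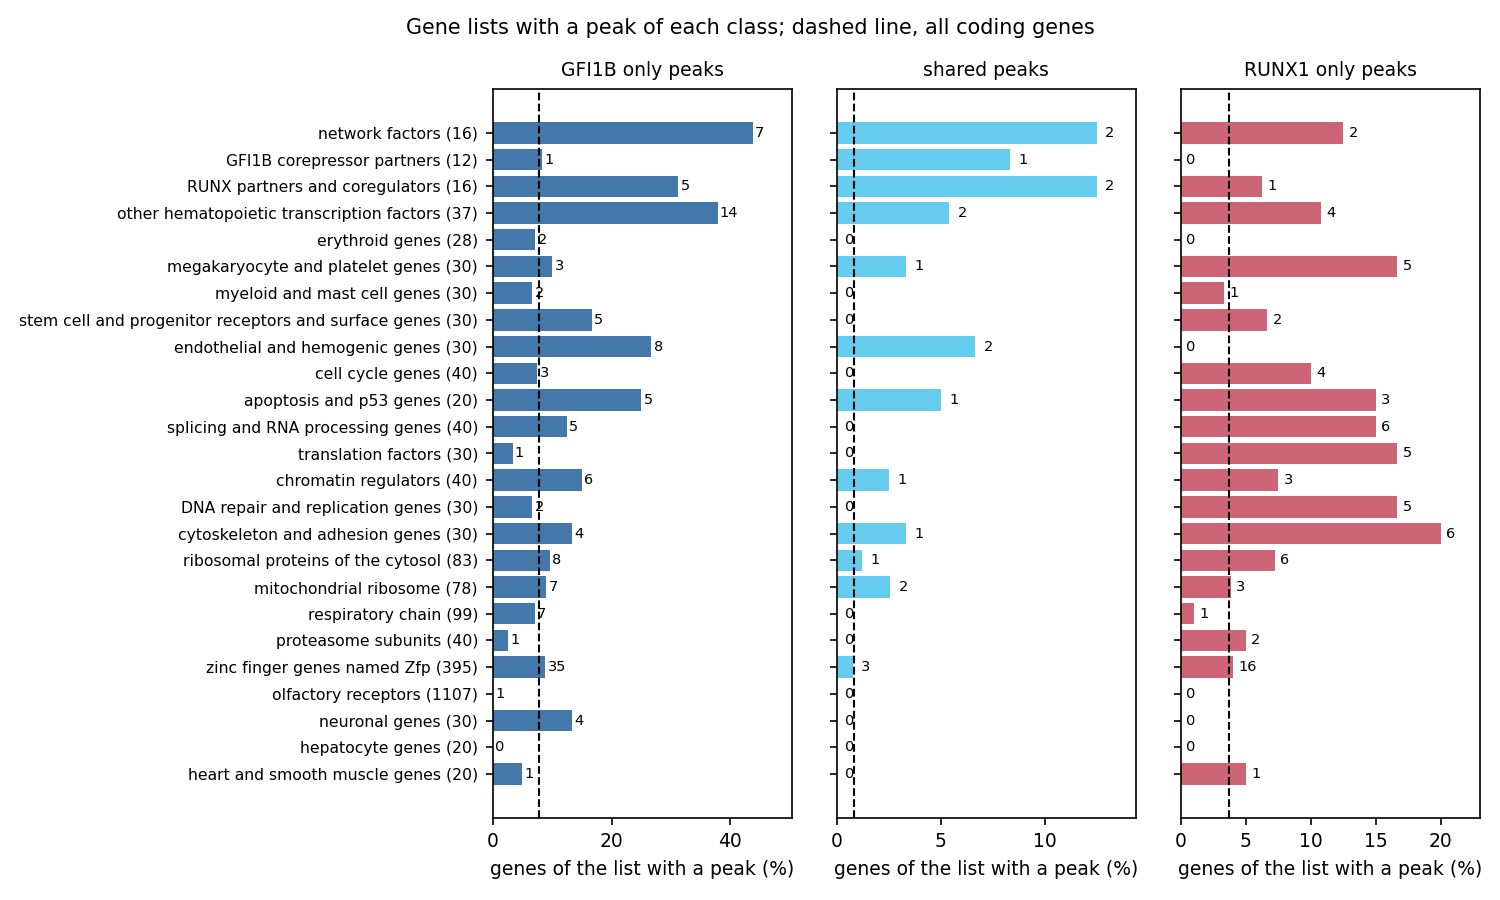
Percentage of the genes of each list (horizontal) with a GFI1B-only, shared or RUNX1-only peak by nearest TSS, 1 row per list, with the share over all coding genes marked for each class. Network factors (43.8%), other hematopoietic TFs (37.8%) and endothelial genes (26.7%) lie above the 7.82% of GFI1B-only peaks, as do apoptosis (25%), chromatin (15%) and neuronal genes (13.3%), and olfactory receptors and hepatocyte genes lie at or near 0. Counts with a GFI1B-only peak within 2 kb of a TSS are not drawn. They were 5 of 16, 6 of 37 and 3 of 30 for the first 3 lists. For apoptosis, chromatin and neuronal genes they were 1 of 20, 2 of 40 and 2 of 30, against 4.00% of all coding genes.

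The nearest genes of the 3 classes overlapped in part. GFI1B-only peaks were assigned to 1642 coding genes, shared regions to 169 and RUNX1-only peaks to 776, or 2420 genes in all. Both a GFI1B-only and a RUNX1-only peak were assigned to 115 genes, which were 7.0% of the GFI1B-only genes, where 3.70% of all coding genes had a RUNX1-only peak, and 14.8% of the RUNX1-only genes, where 7.82% of all coding genes had a GFI1B-only peak. Of the 169 genes with a shared region, 117 (69.2%) had no peak of another class, 42 (24.9%) also had a GFI1B-only peak and 17 (10.1%) also had a RUNX1-only peak. With a peak within 2 kb of a TSS of the gene as the rule, 839 genes (4.00%) were assigned to GFI1B-only peaks, 74 (0.352%) to shared regions and 602 (2.87%) to RUNX1-only peaks, and 21 genes had both a GFI1B-only and a RUNX1-only peak. These 21 were 2.50% of the GFI1B-only genes, where 2.87% of all coding genes had a RUNX1-only peak. They were 3.49% of the RUNX1-only genes, where 4.00% of all coding genes had a GFI1B-only peak. By this rule the overlap was thus not above the shares over all coding genes.

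At least 2 peaks of the class were assigned to 172 of 1642 genes (10.5%) for GFI1B-only, 25 of 776 (3.22%) for RUNX1-only and 6 of 168 (3.57%) for shared GFI1B peaks. These shares were not tested, and a class with more peaks has more genes with several. Pik3r1, the regulatory subunit of PI3 kinase, Pim1, a survival kinase, and Rbpms, an RNA-binding protein, each had 4 GFI1B-only peaks. In all, 26 genes had 3 or more, and Add3 (adducin) and Amotl1 (angiomotin-like) are the first by symbol of those with 3. Those of Pim1 lay 25145 to 46794 bp upstream. Gse1, a protein found with LSD1 complexes, led both other classes, with 3 shared regions and 3 RUNX1-only peaks, and GFI1B-only peaks were assigned to it as well. Cbfa2t3, Fos (a subunit of AP-1), Gtf3c5 (a subunit of a general factor of RNA polymerase III, next to Gfi1b) and Itsn1 (a scaffold of endocytosis) had 2 shared regions each. Adgrg1, Bbc3 and Btbd9 are the first by symbol of the genes with 2 RUNX1-only peaks. Peaks of all 3 classes were assigned to 7 genes, namely Adcy9, Esp38, Fos, Gse1, Itsn1, Reep3 and Runx1.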

How the data were processed

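Peak lists of 14 ChIP-seq libraries were deposited as positions of 400 bp regions on mm10 (GRCm38). Per the study's methods, the authors trimmed reads with CutAdapt, aligned them with Bowtie, kept uniquely placed reads, removed duplicates with Picard, called peaks with MACS against the input of the same population, chose the p-value cutoff of each list after visual inspection, and refined the data with polyPeak. The submitters' processing notes name Bowtie and bedtools, without versions (not given in the sources used here). The cutoff was stricter for RUNX1 than for GFI1B in HP, so the numbers of peaks in the 2 lists, and the sizes of the classes, are not on 1 scale. The lists carry no depth or scores, and the read totals of the study's supplement were not used here, so a missing peak does not show missing binding.

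Peaks were split by overlap and assigned to RefSeq coding genes (release 108.20200622, 21000 genes) by the TSS nearest to the peak centre. Sequences were read from RefSeq GRCm38.p6. Shares were compared with two-sided Fisher's exact tests, with Benjamini-Hochberg adjustment over 3 comparisons for position, 36 for 12 consensus sequences and 21 for 7 other lists, at a threshold of 0.05, and intervals are exact (Clopper-Pearson, 95%; Newcombe for differences). Peaks are not replicates, and neighbouring peaks are not independent. Named genes were the 16 network factors, up to 4 members per list and class nearest to a TSS (those with both factors first), the 5 genes per class with most peaks (ties by symbol) and the 10 closest shared pairs (ties by position). Genes at the threshold were added. Some items that this rule names are not reported here. The 25 gene lists, the members and the tests were chosen with earlier results of these data known. Steps were tested on simulated data. Python 3.11.15, pandas 2.3.3, SciPy 1.17.1 and pysam 0.24.0 were used.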

Additional observations from a re-analysis of the deposited data

How the results depend on the processing

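The count of shared regions ran from 151 to 194 over the alternatives for overlap and left-out regions. The promoter share of GFI1B-only peaks was 21.3 to 26.4 points below that of RUNX1-only peaks, and both differences from RUNX1-only peaks were called under every alternative run. The difference between shared and GFI1B-only peaks was called under none of them, with a lowest adjusted p of 0.0535 in the exact tests. Of 36 consensus comparisons, 16 were called over all peaks, 8 among distal and 8 among promoter peaks, where fewer peaks are compared. The E-box difference between GFI1B-only and RUNX1-only peaks turned to -4.29 points among distal peaks, and the cause was not tested. With peaks within 2 kb of a TSS as the rule, 839 GFI1B-only and 74 shared genes were assigned, against 1642 and 169, since distal peaks drop out. In the central 200 bp, the NRF1 core became commoner in RUNX1-only than in GFI1B-only peaks and the CRE commoner in shared than in GFI1B-only peaks (exact tests, adjusted p = 0.0155 and 0.0272). Of the single consensus comparisons, 266 stayed on their side of the threshold over the alternatives, 19 lost the call, 2 gained it and 1 that was called over all peaks turned. For single other lists these counts were 156, 10, 2 and 0. Differences that were called in neither setting changed sign in 23 and 8 of these comparisons. No paired analysis was possible because each factor has 1 list.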

Other observations

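Chromosome 8 held 8.42% of GFI1B and 10.3% of RUNX1 peaks, or 1.80 and 2.21 times its share of coding TSSs, and it ranked first among chromosomes in these and 8 further lists of the series. It held 12 of 67 promoter shared GFI1B peaks (17.9%, exact interval 9.61 to 29.2%), 7.63% of promoter GFI1B-only and 9.26% of promoter RUNX1-only peaks. Of distal peaks the chromosome held 11.1% of shared GFI1B (5.87 to 18.6%), 8.14% of GFI1B-only and 10.3% of RUNX1-only peaks. Cbfa2t3, Gse1, Zfpm1, Lyl1, Adgrg1, Klf2 and Cbfb lie on it. The cause was not tested, and leaving the chromosome out, an alternative chosen after the data were seen, left 151 shared regions and kept the promoter calls. It lost the call of 1 consensus comparison and of 1 other-list comparison.

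Words in RefSeq gene descriptions were also counted after the data were seen, with no test. Kinase stood in the descriptions of 5.72% of GFI1B-only, 5.33% of shared and 3.74% of RUNX1-only genes and 3.26% of all coding genes. Zinc finger stood in 3.96%, 7.10% and 3.87%, against 3.22%. Receptor stood in 5.48%, 4.73% and 3.61%, against 12.3%, a word that the olfactory receptors share.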
